A study of Mus musculus with 12 samples.

Results

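The genes of the nuclear-encoded respiratory chain were examined in sensory neuron fractions of mouse ganglia. They were chosen by gene symbol only, with names that begin in Ndufa, Ndufb, Ndufc, Ndufs or Ndufv, Sdha to Sdhd, Uqcr, Cyc1, Cox4 to Cox8, or Atp5 with a subunit letter. The pattern found 83 of the 22609 genes listed, namely 37 of complex I, 4 of complex II, 9 of complex III, 18 of complex IV and 15 of complex V. The pattern itself uses no measured value, but the subunits were chosen with earlier results of these data known. The study had already reported genes of complexes I to V as higher in males in both ganglia. RNA came from neuron-enriched fractions of the trigeminal ganglion (TG) and the lumbar dorsal root ganglion (DRG), which hold the cell bodies of the neurons that sense touch, temperature and pain in the face and in the body. There were 12 libraries, 3 for each sex and ganglion, named here by sex, ganglion and replicate number (female DRG 1 and so on). All mice were naive C57BL animals without a transgene, labelled as 3 to 4 months old (the study's methods give a younger age and females in estrous phase). The fractions were collected on a Percoll density gradient that removes part of the non-neuronal cells, and the series speaks of 3 females and 3 males, so that TG and DRG libraries of 1 sex may share animals. No label says that the libraries of a group come from separate animals, and p values measure the spread between these libraries.

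The respiratory chain lies in the inner mitochondrial membrane and makes most of the ATP of a neuron. Complex I (NADH dehydrogenase) and complex II (succinate dehydrogenase) pass electrons to coenzyme Q, complex III passes them to cytochrome c, and complex IV (cytochrome c oxidase) hands them to oxygen. The proton gradient built by complexes I, III and IV drives complex V, the ATP synthase. A small number of subunits are encoded in mitochondrial DNA and all others in the nucleus. Several complex IV subunits exist as tissue isoforms from separate genes, such as a form in heart and skeletal muscle beside a form found in most tissues. Sensory neurons have long axons with high energy demand, and mitochondrial function in them has been studied widely in pain research.

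Reads assigned to genes ran from 7511765 to 15396090 per library. On the CPM scale, a read count is set against the reads in genes of its library. With the plain totals, 3 counts, taken as the smallest level that a library can show, equalled 0.195 to 0.399 CPM. For all other CPM and RPKM printed here, the totals were further adjusted by the TMM factors of edgeR, computed over all 12 libraries. Counts of subunits with library totals only are given in the last section. Reads outside genes are given as a percent of the reads in and outside genes, without those that aligned to several places. They were 46.4 to 50.4% in female DRG, 38.2 to 42.6% in male DRG, 43.5 to 49.1% in female TG, and 37.6, 40.8 and 47.9% in male TG. The class that aligned to several places held 13195420 to 21206143 counts per library. All 15 sensory neuron markers were present, with summed levels of 8698 to 15510 CPM. Markers of other cells were also present, and all 6 glial, stromal, vascular and macrophage lists had positive median sex differences in both ganglia (log2, female over male). In DRG and TG the medians were 0.14 and 0.30 for satellite glia, 0.59 and 0.86 for Schwann cells, 0.70 and 0.85 for fibroblasts, 1.03 and 0.31 for endothelial cells, 0.72 and 0.64 for mural cells, and 0.83 and 1.04 for macrophages. Skeletal muscle markers summed to at most 4.23 CPM and red blood cell markers to at most 20.3 CPM. In bulk libraries, fewer neurons and less RNA per neuron cannot be told apart.

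Most respiratory chain genes were abundant. On a per-length scale (RPKM, the CPM of a gene per kilobase of its main transcript), 52 of the 83 genes had a mean of 100 or more over the 12 libraries, 19 lay between 10 and 100, 3 between 1 and 10, and 9 under 1. The median level was 115 RPKM in complex I, 189 in complex II, 147 in complex III, 139 in complex IV and 159 in complex V. The most abundant was Ndufa4 with 1177 RPKM, which is named as a complex I gene but is now regarded as a subunit of complex IV. Atp5b, the catalytic beta subunit of ATP synthase, followed with 1022 RPKM, and Cox4i1, the regulatory subunit 4 of cytochrome c oxidase, with 974 RPKM. In complex II the membrane anchor gene Sdhd was highest with 228 RPKM and the other anchor gene, Sdhc, lowest with 58.9 RPKM. In complex III the hinge protein gene Uqcrh had 501 RPKM and Cyc1, the gene of cytochrome c1, 61.5 RPKM. Among the genes with enough reads to be tested, the lowest levels were 0.666 RPKM for Ndufa4l2 in complex I, 0.750 RPKM for Cox4i2 in complex IV and 1.29 RPKM for Atp5l in complex V.

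Some low values went with near-identical copies of the gene. Reads that aligned to several places were counted apart from the genes. Each main transcript was cut into stretches of 50 bases, the read length, and searched for exact matches elsewhere in the mm9 genome. For 57 genes fewer than 10% of the stretches occurred elsewhere, for 18 genes 10 to 50%, and for 8 genes over 50%. The median level was 150 RPKM in the 57 genes, 108 in the 18 genes and 53.7 in the 8 genes. Ndufs5, an accessory subunit of complex I, was listed at 0 counts in all 12 libraries, and 80.0% of its stretches occurred elsewhere. Atp5g2, one of 3 genes for the c-ring subunit of ATP synthase, had 0 to 11 counts, with 100% of its stretches found elsewhere, and Atp5l (subunit g) had 0 to 23 counts, with 89.4%. Cox7c, a small subunit of complex IV, had 0 to 183 counts, with 71.5%. The levels of these 4 genes are uncertain. Cox7c (in both ganglia) and Atp5l (in DRG) had enough reads to be tested and are included in the counts and medians below, and neither met the criteria. The genes Atp5h, Cox5b, Uqcrb and Cox7a2l were also repeated elsewhere to 67.9, 63.2, 61.7 and 54.9%, and their levels (95.9 to 151 RPKM) are uncertain to that extent.

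**Figure D1:**
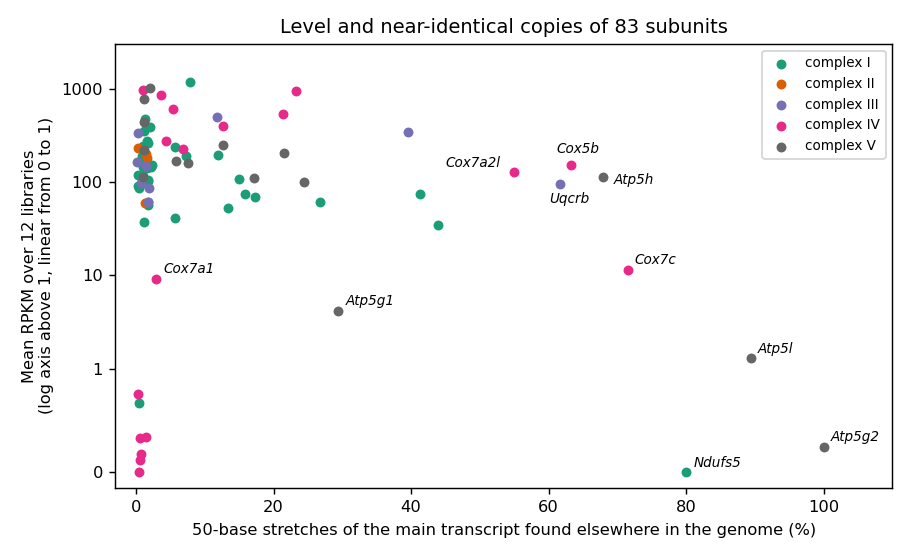
Mean level of each of the 83 genes over 12 libraries (RPKM, log axis above 1) against the percent of 50-base stretches of its main transcript that occur elsewhere in the genome, coloured by complex. Ndufs5, Atp5g2, Atp5l and Cox7c lie low on the right. Atp5g1 of complex V lies at 4.16 RPKM and 29.4%, and the other low points on the left are tissue isoforms of complexes I and IV.

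The isoforms of 8 families were then compared within each library. In 7 of the families 1 gene made up nearly all of the level. Ndufa4 held at least 99.7% of its pair, and Ndufa4l2, a form known to be induced by low oxygen, reached at most 2.17 RPKM. Cox4i1 held at least 99.7% and its lung form Cox4i2 at most 2.20 RPKM. Among heart and muscle forms, Cox6a2 reached at most 1.38 RPKM beside 246 to 646 RPKM of Cox6a1, and Cox8b at most 0.778 RPKM beside 221 to 943 RPKM of Cox8a. The testis forms Cox6b2, Cox7b2 and Cox8c reached 2.04, 3.05 and 0 RPKM, beside 475 to 1657 RPKM of Cox6b1 and 106 to 433 RPKM of Cox7b. Atp5g3 held 98.3 to 99.4% of the c-ring genes per length. This share depends on the long main transcript of Atp5g1 (4715 bases, against 714 for Atp5g3), since by CPM Atp5g1 held 4.09 to 10.3%, and the share of Atp5g2 cannot be read because of its copies. The counts behind the hypoxia and lung forms were 0 to 26 for Ndufa4l2 and 0 to 18 for Cox4i2. In the minor forms of complexes I and IV named here, 0.3 to 1.4% of the stretches occurred elsewhere in the genome.

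The Cox7a family was mixed. Cox7a2, the form of most tissues, held 70.4 to 89.5% of the family. Cox7a2l, a gene linked to the joining of complexes III and IV into supercomplexes, held 10.0 to 25.1%. Of the stretches of Cox7a2l 54.9% occurred elsewhere in the genome, against 5.4% for Cox7a2, so that these shares are uncertain to that extent. The heart and muscle form Cox7a1 was the only muscle form above 10 RPKM in any library. Its level was 0, 4.14 and 2.33 RPKM in female DRG, 13.6, 23.5 and 9.95 in male DRG, 2.68, 4.4 and 28.1 in female TG, and 5.50, 11.2 and 4.58 in male TG. The highest library was female TG 3, and female DRG lay below male DRG without overlap, while in TG the sexes overlapped. In the edgeR test the log2 difference of Cox7a1 was -2.81 ± 1.32 (SE) in DRG (adjusted p = 0.427) and 0.75 ± 0.93 in TG (adjusted p = 0.674).

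**Figure D2:**
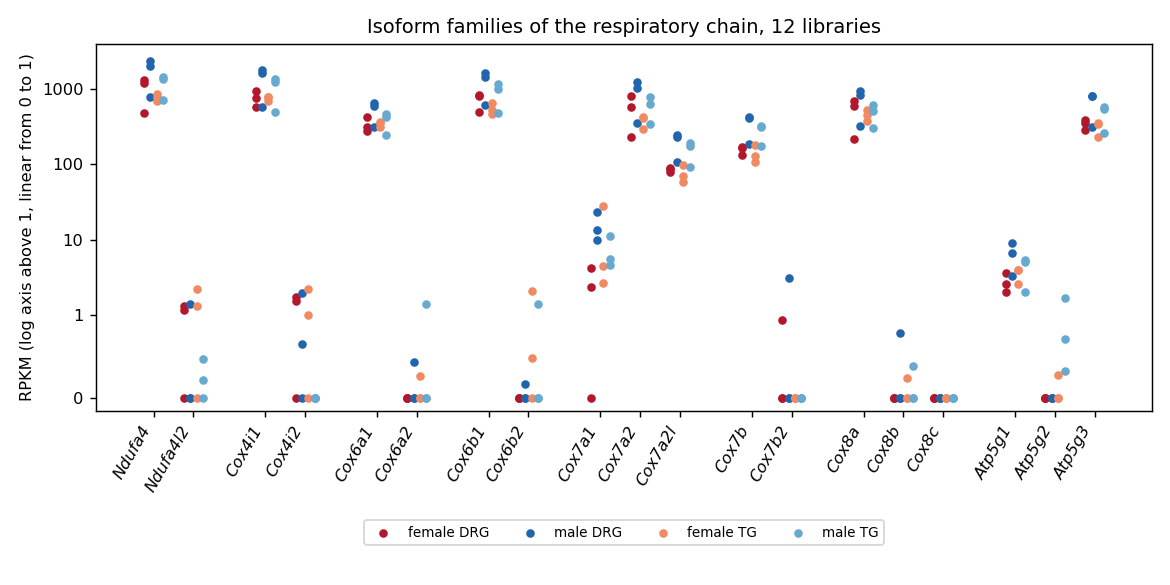
Level of each isoform gene in 12 libraries (RPKM, log axis above 1), with points coloured by group and genes set side by side by family. Ndufa4, Cox4i1, Cox6a1, Cox6b1, Cox7b, Cox8a and Atp5g3 lie at 106 RPKM or more in every library, and their partner genes lie under 10 RPKM.

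The subunits moved together between libraries. Their reads made up 1.57, 1.54 and 1.0% of the reads in genes in female DRG 1 to 3, and 2.62, 2.43 and 1.26% in male DRG 1 to 3. In TG they made up 1.30, 1.30 and 1.34% in females and 1.98, 2.18 and 1.22% in males. The male libraries numbered 1 and 2 were high in both ganglia, while the male libraries numbered 3 lay within or below the female range. In DRG, male 1 lay above every female library for 71 of 76 tested subunits, male 2 for 73, and male 3 for 22. In TG the numbers were 66, 68 and 14 of 73 subunits. Over all genes tested, male 1, 2 and 3 lay above every female for 27.6, 28.7 and 22.2% in DRG and for 32.4, 30.9 and 25.5% in TG. Male TG 3 also had more reads outside genes (47.9%) than the other male TG libraries. In DRG the summed satellite glia markers were 2546 CPM in female 3 and 2943 CPM in male 3, against 5500 to 5821 CPM in the other 4 libraries. The part of these differences in the subunit levels was not tested. Male 3 was also the highest male DRG library in summed fibroblast markers (1610 CPM, against 1024 and 1140 CPM). Male TG 3 was likewise highest in male TG (1404 CPM, against 618 and 787 CPM). In females the libraries numbered 3 had the lowest fibroblast sums. These were 1460 CPM in DRG, against 2095 and 2185 CPM, and 1028 CPM in TG, against 1691 and 1555 CPM. Their neuron marker sums were the highest of the females, with 15112 CPM in DRG and 11998 CPM in TG. The part of these markers was not tested either.

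**Figure D3:**
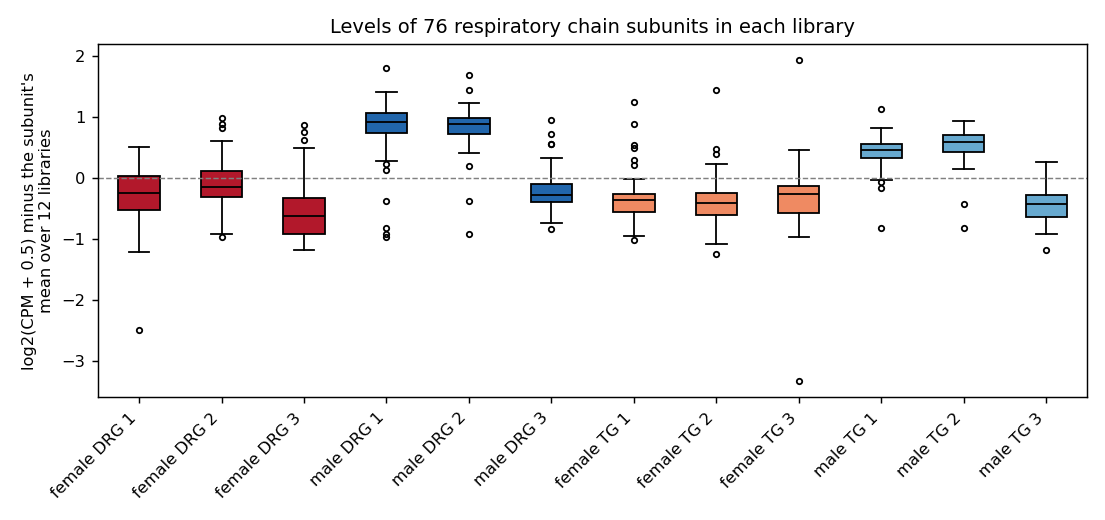
Deviation of 76 subunits from their own mean over 12 libraries (log2(CPM + 0.5)), with 1 box per library (median, quartiles, whiskers to 1.5 times the interquartile range), coloured by group. The medians of male DRG 1 and 2 lie at 0.92 and 0.88, while male DRG 3 lies at -0.27 and male TG 3 at -0.42, within the range of the female libraries from -0.61 to -0.14.

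The first comparison asked which subunits differ between females and males in DRG. Of the 83 genes 76 had enough reads to be tested, and 72 of them had lower values in females, with a median log2 difference of -0.85 (0.02 over all 13958 genes tested). The study's criteria (fold change above 2, unadjusted p under 0.05 and a mean above 1 CPM in the higher sex) were met by 18 subunits, all lower in females, against a background of 2.93% of all genes tested in that direction. An unadjusted p under 0.05 with a lower female level was reached by 44 subunits (background 7.97%), and 0 subunits were higher in females at that p (background 3.84%). All female libraries lay below all male libraries, on CPM scaled within the ganglion, in 22 subunits (background 10.3%). The CPM printed below are scaled over all 12 libraries. After adjustment over all genes 0 subunits passed 0.05 in edgeR (background 0%), with a smallest adjusted p of 0.307, while DESeq2 called 18 (background 2.18%). Without male DRG 3 the criteria were met by 51 subunits, without female DRG 2 by 30, without male DRG 2 by 11 and without male DRG 1 by 6. The share over all genes is not given for these runs. They show only how far the count depends on single libraries. Summed fibroblast markers (6 of 6 genes listed) were 1460 to 2185 CPM in female DRG and 1024 to 1610 CPM in male DRG, and macrophage markers (6 of 6) 78.9 to 212 and 60.2 to 97.3 CPM. Neuron markers were 9115 to 15112 CPM in female and 13467 to 15510 CPM in male DRG, with a median log2 difference of -0.15. The part of other cells, and of the reads outside genes given above, in the sex difference was not tested.

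All complexes had a negative median in DRG. The criteria were met by 9 of 36 tested subunits of complex I (median -0.83), 2 of 4 of complex II (-1.0), 1 of 9 of complex III (-0.83), 2 of 13 of complex IV (-0.78) and 4 of 14 of complex V (-0.91). These medians were not tested against each other. Ndufv2, an iron-sulfur subunit of the NADH-oxidising arm of complex I (ENSMUSG00000024099.8, mm9 chr17:66428135-66450899), had the smallest p of complex I. Its levels were 137, 128 and 169.7 CPM in females and 365, 394 and 234 CPM in males, so that the groups did not overlap. The log2 difference was -1.18 ± 0.28 (adjusted p = 0.307).

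Ndufs4, an accessory subunit of the same arm whose loss in mice causes an encephalopathy (ENSMUSG00000021764.6, mm9 chr13:115078003-115178302), had 87.8, 109.9 and 99.2 CPM in females and 217, 266 and 156 CPM in males. All females lay below all males, with a log2 difference of -1.09 ± 0.28. Ndufa8, a complex I subunit on the intermembrane side, had 33.9, 41.6 and 74.6 CPM in females and 144, 151 and 81.5 CPM in males. Here female DRG 3 and male DRG 3 were close to each other without overlap, and the log2 difference was -1.31 ± 0.35 (adjusted p = 0.307).

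In complex II, Sdhb, the iron-sulfur subunit (ENSMUSG00000009863.8, mm9 chr4:140517118-140535108), had 106, 124 and 136 CPM in females and 331, 384 and 179 CPM in males. The log2 difference was -1.27 ± 0.30 (adjusted p = 0.307), and the groups did not overlap. Sdhd, the membrane anchor, had 218, 246 and 173 CPM in females and 574, 530.2 and 270.1 CPM in males, a log2 difference of -1.09 ± 0.31. In complex III, Uqcrb, a ubiquinone-binding subunit, had 29.7, 36.4 and 39.4 CPM in females against 91.0, 93.8 and 52.7 CPM in males. Its log2 difference was -1.16 ± 0.31, without overlap, on reads limited by the copies named above. Uqcrfs1, the Rieske iron-sulfur protein, had 213, 176 and 123 CPM in females and 400.4, 379 and 163 CPM in males. For Uqcrfs1 the groups overlapped and the criteria were not met (log2 -0.86 ± 0.35).

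In complex IV, Cox7a2l had 99.0, 104 and 90.1 CPM in females and 278, 263 and 124 CPM in males, with a log2 difference of -1.16 ± 0.32 and no overlap. Cox7b, a small subunit encoded on the X chromosome, had 166, 169 and 132 CPM in females and 411, 433 and 186 CPM in males (log2 -1.12 ± 0.32). In complex V, Atp5f1, subunit b of the stalk that holds the catalytic head (ENSMUSG00000000563.11, mm9 chr3:105745616-105763017), had 95.2, 83.5 and 132 CPM in females. Its male levels were 229, 282 and 171 CPM, all above the females, and the log2 difference was -1.12 ± 0.29 (adjusted p = 0.307). Atp5k, subunit e, had 34.9, 47.4 and 33.3 CPM in females and 143, 95 and 41.7 CPM in males, so that male DRG 3 lay within the female range (log2 -1.26 ± 0.39).

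The exceptions were few. The core protein gene Uqcrc1 had 167, 129 and 121 CPM in female DRG and 151, 158 and 76.8 CPM in male DRG, a log2 difference of 0.13 ± 0.31. The other subunits with a positive value were Ndufa10 (0.13 ± 0.34), and Ndufa4l2 (0.74 ± 2.31) and Cox4i2 (0.34 ± 2.13), which had at most 17 and 15 counts in any DRG library. None of these 4 positive values passed an unadjusted p of 0.05.

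**Figure D4:**
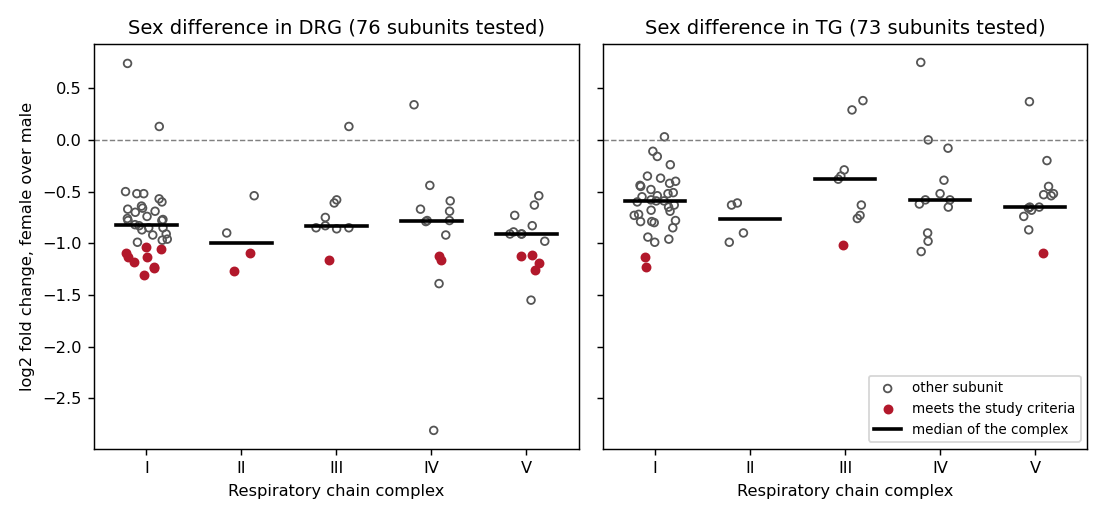
Log2 fold change, female over male, of each tested subunit by complex in DRG (76 subunits) and TG (73 subunits), with red points for subunits that meet the study's criteria and bars for the median of the complex. All medians lie below 0, from -1.0 to -0.78 in DRG and from -0.77 to -0.38 in TG.

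The same comparison in TG gave the same direction for 68 of 73 tested subunits, with a median log2 difference of -0.60 (0.05 over all 14004 genes tested). The criteria were met by 4 subunits, all lower in females (background 2.24%), and an unadjusted p under 0.05 with a lower female level by 31 (background 9.76%). The groups did not overlap in 13 subunits (background 11.4%). After adjustment 0 subunits passed in edgeR (background 0%), with a smallest adjusted p of 0.154, while DESeq2 called 15 (background 3.17%). Without male TG 3 the criteria were met by 19 subunits, without female TG 3 by 14, and without male TG 1 or male TG 2 by 2 (share over all genes not given for these runs). In TG, summed fibroblast markers were 1028 to 1691 CPM in females and 618 to 1404 CPM in males, macrophage markers 141 to 281 and 48.4 to 130 CPM, and neuron markers 8698 to 11998 and 9296 to 12358 CPM, and their part was again not tested. By complex the medians were -0.59 in complex I, -0.77 in complex II, -0.38 in complex III, -0.58 in complex IV and -0.65 in complex V.

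The 4 subunits that met the criteria in TG were Ndufv2, Ndufs4, Uqcrb and Atp5f1, and all 4 were among the 18 of DRG (22.2% of them). Of all genes tested in both ganglia 0.523% met the criteria in both with lower values in females. No library is shared by the comparisons, although animals may be. Atp5f1 had the smallest p in TG, with 95.6, 89.5 and 109 CPM in females and 244, 227 and 176 CPM in males. The groups did not overlap and the log2 difference was -1.09 ± 0.22 (adjusted p = 0.154). Ndufv2 had 111, 95 and 163 CPM in females and 329.9, 365 and 196 CPM in males, a log2 difference of -1.23 ± 0.29. Ndufs4 had 62.6, 53.3 and 119 CPM in females and 197, 211 and 123 CPM in males, so that female TG 3 lay just below male TG 3 (log2 -1.13 ± 0.33). Uqcrb had 27.9, 24.5 and 35.9 CPM in females and 70.2, 73.2 and 40.9 CPM in males (log2 -1.02 ± 0.29).

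Other subunits with small p in TG had fold changes under 2. Ndufs1, the largest iron-sulfur subunit of complex I, had 201, 138 and 229 CPM in female TG and 409, 416 and 316 CPM in male TG, without overlap (log2 -0.96 ± 0.24). Sdhd had 180.4, 174 and 159.6 CPM in females and 385, 394 and 213 CPM in males (log2 -0.90 ± 0.26). Sdhb had 116, 107 and 175 CPM in females and 326, 331 and 159 CPM in males, and here male TG 3 lay below female TG 3 (log2 -0.99 ± 0.31). Atp5c1, the rotating gamma subunit, had 178, 163 and 241 CPM in females and 417, 439 and 245 CPM in males (log2 -0.87 ± 0.27).

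Uqcrh had 204, 163 and 170.5 CPM in female TG and 335, 399.9 and 209 CPM in male TG (log2 -0.76 ± 0.26). Cox7a2l (log2 -0.98 ± 0.30) and Cox7b (-0.90 ± 0.29) had 1 male library, male TG 3, within the female range. Positive values in TG were found for Cox7a1, Cyc1, Atp5d, Uqcrc1 and Ndufa10, and none passed an unadjusted p of 0.05. Cyc1 had 99.7, 83.0 and 78.3 CPM in females and 76.0, 82.6 and 48.4 CPM in males (log2 0.38 ± 0.26), and Atp5d, the delta subunit, 140.5, 170.5 and 202 CPM against 151, 168 and 91.8 CPM (0.37 ± 0.27). Ndufa8, with 57.3, 54.5 and 96.0 CPM in females and 130.4, 127 and 62.7 CPM in males, overlapped between the sexes in TG (log2 -0.58 ± 0.32, adjusted p = 0.320).

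In a model of all 12 libraries, the mean sex difference of both ganglia passed an adjusted p of 0.05 (edgeR) in 28 of 76 subunits, all lower in females (background 5.47%). They were 15 of 36 in complex I, 3 of 4 in complex II, 2 of 9 in complex III, 2 of 13 in complex IV and 6 of 14 in complex V. The smallest adjusted p values were 0.0132 for Atp5f1 (log2 -1.14 ± 0.18) and 0.0147 for Ndufv2 (-1.23 ± 0.21). Sdhb (-1.16 ± 0.23), Uqcrb (-1.12 ± 0.22) and Ndufs4 (-1.14 ± 0.22) each had an adjusted p of 0.0181. This count treats the 12 libraries as independent, and when TG and DRG libraries of the same sex and number were summed, 0 subunits passed (smallest adjusted p 0.140, 47 with an unadjusted p under 0.05, all lower in females, background 10.7%). DESeq2 called 45 (background 8.94%). The edgeR count was 0 also without male DRG 2, female TG 1, female TG 2, male TG 1 or male TG 2, each left out in turn. It was 2 without male DRG 1, 6 without female DRG 2, 12 without female DRG 1, 46 without male TG 3 and 53 without male DRG 3. For the runs without a library the share over all genes is not given.

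Subunit transcripts are short, and short genes as a whole were lower in females. Exon length here counts all annotated exons of a gene merged, and not the main transcript used for RPKM. The median exon length was 1217 bases for the 83 genes and 3726 bases for the genes tested. When all genes were divided by exon length into 5 equal classes, the shortest class held 55 of the 76 subunits in DRG and 52 of the 73 in TG. The median log2 sex difference of that class was -0.46 in DRG and -0.27 in TG, against 0.24 and 0.14 in the longest class. When GC content and exon length were fitted in each library and removed, 67 of 76 subunits were still lower in female DRG, with a median of -0.41, and 48 of 73 in female TG, with a median of -0.21. The criteria were then met by 3 subunits in DRG (background 1.47%) and 3 in TG (background 0.673%), and the 12-library model called 6 (background 1.22%). An unadjusted p under 0.05 with lower values in females was reached by 19 subunits in DRG (background 6.23%) and 15 in TG (background 5.06%). With higher values it was reached by 0 in DRG (background 2.80%) and 2 in TG (background 5.41%), namely Ndufa4 (0.55) and Ndufa1 (0.52), both of which had negative uncorrected values (-0.54 and -0.40). Corrected medians in DRG were -0.67 in complex II, -0.60 in complex V, -0.40 in complex I, -0.25 in complex III and -0.22 in complex IV, and in TG -0.48, -0.25, -0.25, 0.01 and -0.03 in the same order.

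Single subunits differed in how far they moved with the correction. The exon length used in it can exceed that of the main transcript. It was 4522 against 623 bases for Ndufb7, 4105 against 1604 for Atp5f1 and 2239 against 1142 for Sdhb. For Ndufs4 both were 1534 bases. How far the corrected values depend on this choice of length was not tested. Sdhb moved little, with a corrected log2 value of -1.20 in DRG and -1.18 in TG. Atp5f1 moved to -1.01 in DRG and to -0.62 in TG, under a fold change of 2. The corrected values of Uqcrb were -0.23 in DRG and 0.17 in TG, and those of Cox7b -0.22 and 0.14. Those of Ndufv2 were -0.67 and -0.52, and those of Ndufs4 -0.40 and -0.35. An unadjusted p under 0.05 in both ganglia after correction, with lower values in females, was found for 11 subunits (background 2.53% of genes tested in both), namely Ndufa11, Ndufb7, Ndufs1, Ndufs8, Ndufv2, Sdha, Sdhb, Atp5a1, Atp5c1, Atp5f1 and Atp5o, a list read off after the values were seen. None of complexes III and IV was among them. The part of the length trend in the subunits' differences was measured here only by this correction, and its source was not tested.

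**Figure D5:**
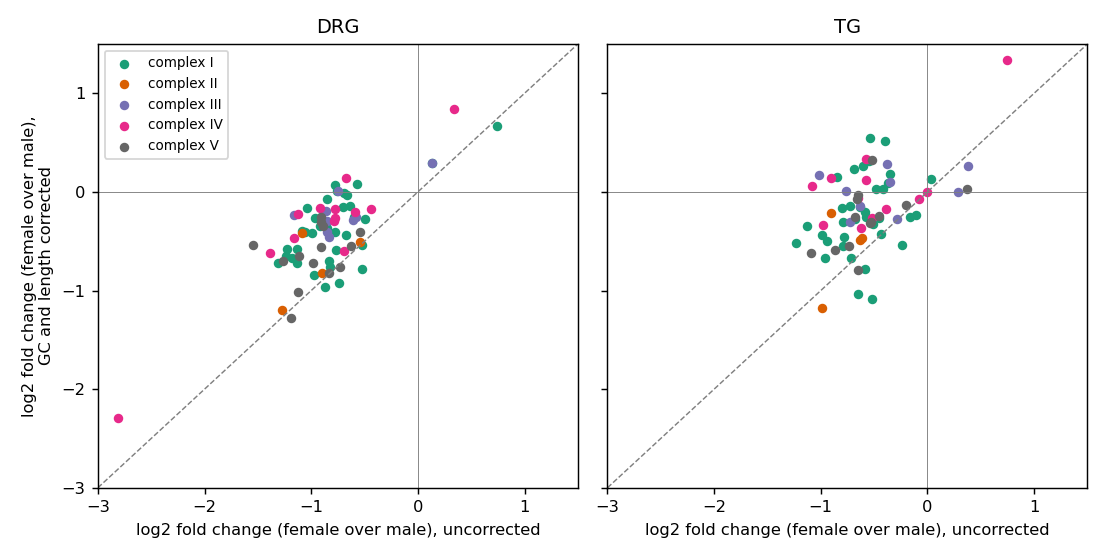
Log2 fold change (female over male) of each subunit with GC content and length fitted per library (vertical axis) against the uncorrected value (horizontal axis) in DRG and TG, coloured by complex, with the line of equal values dashed. Most points lie above the line, and the medians move from -0.85 to -0.41 in DRG and from -0.60 to -0.21 in TG.

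The promoters of the subunits were also described. NRF-1, GABP (also called NRF-2) and YY1 are transcription factors known to bind promoters of respiratory chain genes. RefSeq windows of 250 bases before to 50 bases after a transcription start (build GRCm38.p6) were matched for 67 of the 83 genes, with 72 windows in all. Both strands were searched for the letters CGCATGCG (NRF-1), CCGGAAG (GABP) and AAGATGG (YY1). The last 2 motifs can share the letters AAG, but no matches overlapped in the windows of the subunits. CGCATGCG occurred in 9 of 72 windows (12.5%, against 1.87% of all 32851 windows), CCGGAAG in 16 (22.2% against 8.86%) and AAGATGG in 11 (15.3% against 6.34%). At least 1 of the 3 was present in 30 windows (41.7% against 16%). These matches are a description of the letters and not of binding. The windows were not matched for GC content, and the part of the motifs in the levels or in the sex difference was not tested.

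The 150 bases before the start are shown for the subunit with the smallest p of each complex in DRG that had a single window, for Ndufa8, and for the muscle and general forms Cox7a1 and Cox7a2. They run from 5′ to 3′ on the strand of the gene, and capitals mark the letters of a motif, which can run past the start.
Ndufv2, chr17:66101560-66101709, minus strand: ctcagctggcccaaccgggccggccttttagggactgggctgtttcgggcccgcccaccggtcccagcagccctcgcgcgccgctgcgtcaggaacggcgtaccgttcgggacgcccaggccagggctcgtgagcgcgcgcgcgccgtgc
Sdhb, chr4:140961121-140961270, plus strand: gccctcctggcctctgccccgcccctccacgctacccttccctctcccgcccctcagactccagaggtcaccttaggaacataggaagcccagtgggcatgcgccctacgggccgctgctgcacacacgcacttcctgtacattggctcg
Uqcrfs1, chr13:30545317-30545466, minus strand: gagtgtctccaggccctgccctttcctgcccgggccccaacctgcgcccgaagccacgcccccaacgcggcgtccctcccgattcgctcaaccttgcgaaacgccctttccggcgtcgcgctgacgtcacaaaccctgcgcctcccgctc
Cox7a2l, chr17:83514334-83514483, minus strand: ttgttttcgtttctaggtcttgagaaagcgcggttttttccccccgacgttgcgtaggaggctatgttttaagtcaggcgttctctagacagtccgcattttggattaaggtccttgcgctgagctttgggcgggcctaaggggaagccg
Atp5f1, chr3:105959264-105959413, minus strand: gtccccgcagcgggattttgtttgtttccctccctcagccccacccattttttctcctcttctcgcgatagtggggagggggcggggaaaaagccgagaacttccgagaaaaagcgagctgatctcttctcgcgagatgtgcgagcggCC
Ndufa8, chr2:36049339-36049488, minus strand: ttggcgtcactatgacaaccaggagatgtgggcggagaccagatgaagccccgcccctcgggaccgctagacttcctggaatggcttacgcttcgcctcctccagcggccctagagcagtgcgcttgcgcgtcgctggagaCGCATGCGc
Cox7a1, chr7:30184021-30184170, plus strand: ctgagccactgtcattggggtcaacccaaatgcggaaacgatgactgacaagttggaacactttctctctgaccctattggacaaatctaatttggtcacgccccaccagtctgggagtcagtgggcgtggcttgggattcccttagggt
Cox7a2, chr9:79759854-79760003, minus strand: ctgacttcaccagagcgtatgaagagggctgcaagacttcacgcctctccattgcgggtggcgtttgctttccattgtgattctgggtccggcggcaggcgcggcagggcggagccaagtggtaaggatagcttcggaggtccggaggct
Ndufa8 holds the NRF-1 letters 9 bases before its start, and Sdhb holds the GABP letters from base 7 after its start, outside the stretch shown. The YY1 letters of Atp5f1 (Atp5pb in RefSeq) lie on the other strand and begin 2 bases before the start. No motif letters were found in the windows of Ndufv2, Uqcrfs1, Cox7a2l, Cox7a1 and Cox7a2. The Cox7a1 stretch has a GC content of 52.0% with 4 CG pairs, and the Cox7a2 stretch 60.7% with 11. In 9 of the 73 subunits tested in both ganglia, all females lay below all males in both. Over all genes the share was 10.3% in DRG and 11.4% in TG, and the joint share is not given here. These 9 are listed for their motif letters only. Motif letters were found for Ndufs4 (YY1 letters, from base 36 after the start), Sdhd (GABP letters) and Atp5f1 (YY1 letters). The window of Ndufv2 held none. No match is listed for Atp5c1, Ndufb3, Ndufs1, Sdha and Uqcrb, and which of them had a window is not given here. The 16 genes without a window were not searched, so that a missing match does not show that the letters are absent.

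Whether the sex effect differed between DRG and TG was tested by the interaction term. Here 0 of 76 subunits passed an adjusted p of 0.05 in edgeR (background 0%, smallest adjusted p 0.9998), 3 had an unadjusted p under 0.05, and DESeq2 called 0. The share of all genes at that unadjusted p is not given here, so that these 3 subunits cannot be set against a background. The smallest p were those of Cyc1 (log2 difference of the sex effects, TG minus DRG, 0.96 ± 0.42, adjusted p = 0.9998) and Cox7a1 (3.54 ± 1.61, same adjusted p), followed by Atp5d (0.97 ± 0.46). The value of Cox7a1 rests on female DRG 1, listed at 0, and on female TG 3, the library with most Cox7a1.

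The ganglia themselves were compared over both sexes. For TG against DRG 0 of 76 subunits passed an adjusted p of 0.05 in edgeR (background 0.965%), 0 had an unadjusted p under 0.05, the smallest adjusted p was 0.578, and DESeq2 called 0. These counts use no replicate block. With the block some subunits, all lower in TG, had an unadjusted p under 0.05 in edgeR, as given in the last section. The values were lower in TG for 63 subunits, with a median log2 difference of -0.20 (-0.01 over all genes). The smallest p with lower values in TG were those of the complex I accessory subunits Ndufa2 (-0.56 ± 0.27), Ndufb6 (-0.46 ± 0.23) and Ndufb4 (-0.54 ± 0.28). The smallest with higher values in TG were those of Ndufa10 (0.28 ± 0.21), Cyc1 (0.20 ± 0.21) and Cox7a1 (0.64 ± 0.79).

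Other mitochondrial genes were read from lists. The 13 subunits encoded in mitochondrial DNA were not among the genes listed. Of 5 subunits outside the symbol pattern, 2 had an unadjusted p under 0.05 in DRG and 2 in TG, all lower in females, with medians of -0.88 and -0.59. With GC and length correction the medians were -0.15 and 0.40, so that the sign turned in TG. In this and the following lists the share of all genes that were lower in females at that p is 7.97% in DRG and 9.76% in TG. Atpif1, the inhibitor of ATP hydrolysis by complex V, had 315, 262 and 221 CPM in female DRG and 607, 609.7 and 313 CPM in male DRG (log2 -0.92 ± 0.30). The lowest male and the highest female DRG library were nearly equal, and in TG male TG 3 (235 CPM) lay within the female range of 169.8 to 269 CPM (log2 -0.87 ± 0.30).

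Of 29 assembly factors, 6 in DRG and 8 in TG had an unadjusted p under 0.05 with lower values in females, and none with higher, with medians of -0.51 and -0.47 (corrected -0.25 and -0.16). Cox19, a copper-related assembly factor of complex IV, had 18.6, 26.2 and 24.4 CPM in female DRG and 75.6, 68.4 and 43.4 CPM in male DRG, without overlap (log2 -1.42 ± 0.32). Ndufaf4, an assembly factor of complex I, had 13.7, 10.4 and 18.7 CPM in female TG and 32.9, 28.6 and 29.3 CPM in male TG, also without overlap (log2 -1.04 ± 0.30).

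Among 15 genes of electron carriers and coenzyme Q, 3 in DRG and 5 in TG were lower in females at that p, with medians of -0.47 and -0.26 (corrected -0.29 and -0.14). Coq10a, a coenzyme Q binding protein, had 17.0, 14.3 and 22.2 CPM in female DRG and 43.5, 40.8 and 30.9 CPM in male DRG (log2 -1.10 ± 0.34), and Coq3, a methyltransferase of coenzyme Q synthesis, 18.4, 15.9 and 29.6 CPM in female TG and 66.1, 46.3 and 30.7 CPM in male TG (-1.12 ± 0.34). Of 16 genes of the citric acid cycle and pyruvate dehydrogenase, 8 in DRG and 5 in TG were lower in females at that p, with medians of -0.58 and -0.63 (corrected -0.40 and -0.33). Pdhb, a pyruvate dehydrogenase subunit, had 127, 176 and 149 CPM in female DRG and 391, 407 and 209 CPM in male DRG (log2 -1.14 ± 0.30). Dld, the dihydrolipoamide dehydrogenase of the same complex, had 113, 85.3 and 148 CPM in female TG and 252, 224 and 230.1 CPM in male TG (-0.99 ± 0.24). In all of these 4 genes females lay below males without overlap.

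Of 16 protein import genes, 6 in DRG and 3 in TG were lower in females at that p and 1 in TG was higher, with medians of -0.82 and -0.50 (-0.29 and 0.07 with GC and length correction, so that the sign turned in TG). Timm8b, a chaperone of the intermembrane space, had 88.7, 105 and 64.8 CPM in female DRG and 219, 199 and 90.0 CPM in male DRG, where male DRG 3 lay within the female range (log2 -0.95 ± 0.34). Timm17a, a part of the inner membrane translocase, had 81.9, 80.5 and 100.3 CPM in female TG and 205, 186 and 114 CPM in male TG (-0.90 ± 0.26). Of 6 metabolite carriers and porins, 4 in DRG and 3 in TG were lower, with medians of -0.86 and -0.65 (corrected -0.52 and -0.21). Vdac3, a porin of the outer membrane, had 43.8, 54.6 and 55.2 CPM in female DRG and 118, 131 and 85.4 CPM in male DRG (log2 -1.11 ± 0.28). In TG it had 46.3, 34.8 and 58.0 CPM in females and 112, 98.2 and 70.5 CPM in males (log2 -0.97 ± 0.27).

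Genes that regulate mitochondrial transcription had medians near 0. Of 14 regulators 0 in DRG and 1 in TG were lower in females at that p, while 1 in DRG and 4 in TG were higher (background 3.84 and 10.9% of all genes), with medians of -0.07 and 0.11 (corrected -0.19 and 0.13). Tfam, which packages mitochondrial DNA and starts its transcription, was the 1 lower in TG, with 29.0, 24.3 and 25 CPM in females and 57.2, 54.0 and 50.9 CPM in males. In Tfam male TG 3 was close to the other male libraries, and the log2 difference was -1.0 ± 0.23. Pprc1, a coactivator of NRF-1, had 27.9, 16.5 and 11.4 CPM in female DRG and 8.11, 10.0 and 8.34 CPM in male DRG, all females above all males (log2 1.08 ± 0.46). In edgeR 0 of the genes of these lists passed an adjusted p of 0.05 within a single ganglion. With GC and length correction the log2 values of the named genes in DRG were -0.52 for Atpif1, -1.51 for Cox19, -1.06 for Coq10a, -0.53 for Pdhb, -0.25 for Timm8b, -0.40 for Vdac3 and 0.50 for Pprc1. In TG they were -0.69 for Atpif1, -0.54 for Ndufaf4, -0.65 for Coq3, -0.27 for Dld, -0.37 for Timm17a, -0.12 for Vdac3 and -0.78 for Tfam. In the 12-library model, in which 5.47% of all genes were lower in females at that level, 1 of the 5 further subunits, 3 of the assembly factors, 3 of the carrier and coenzyme Q genes, 6 of the citric acid cycle and pyruvate dehydrogenase genes, 2 import genes and 4 metabolite carriers and porins were lower in females at that level, and of the regulators 1 was lower and 1 higher.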

How the data were processed

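Per the labels and the study's methods, the authors made stranded libraries from rRNA-depleted RNA, sequenced single reads of 50 bases, aligned them to mm9 with TopHat2 at default settings and deposited raw HTSeq-count read counts per gene. The counter's version, annotation and strand setting are not given in the sources used here, and reads of overlapping or antisense genes may be uncertain. The 5 summary lines of each file were left out of library sizes and tests.

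Counts were tested with edgeR 4.0.16 (R 4.3.3; filterByExpr, TMM, quasi-likelihood F-test) over all genes, with Benjamini-Hochberg adjustment. DESeq2 1.42.0 and limma 3.58.1 served as alternatives, and mgcv 1.9.3 fitted GC content and length. Fold changes are log2, female over male or TG over DRG, with SE as the size of the log2 fold change divided by the square root of F. The study's criteria were a fold change above 2, an unadjusted p under 0.05 and a mean above 1 CPM, which stands in for the RPKM of the study. The 6 genes that check the sex of the libraries were left out of counts of genes. RPKM here is CPM per kilobase of the main protein-coding transcript (GENCODE vM1 on NCBIM37, the same assembly as mm9), and 95.9% of the listed genes were annotated. Counts carry no molecular identifiers, so that limits from 3 counts cover counting error only. The scripts were tested on simulated data.

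The subunits and lists were chosen with earlier results of these data known. Named were the isoform families, the 2 smallest p of each complex in each sex comparison, the highest and lowest level of each complex, the 3 largest changes opposite to the median, the 3 smallest p in each direction between ganglia, the 2 smallest p of the interaction, Ndufa8, which the study lists, and the smallest p of each pathway list.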

Additional observations from a re-analysis of the deposited data

How the results depend on the processing

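The counts of subunits that met the criteria in DRG (18) were 7 with library totals only, 3 with GC and length correction, 2 with the replicate block and that correction, 33 with the libraries numbered 1 and 2 only, 9 with those libraries and the correction (an alternative chosen after seeing the data, as in TG) and 42 at a fold change above 1.5. Leaving out 1 library gave 6 (male DRG 1) to 51 (male DRG 3), with 11 without male DRG 2 and 30 without female DRG 2. In TG (4) the counts were 2 with library totals, 1 with the block and the correction, 27 with libraries 1 and 2 only, 6 with those and the correction, 6 with DESeq2 or its size factors, 8 in the 12-library model and 31 at a fold change above 1.5. Leaving out 1 library gave 2 (male TG 1 or 2) to 19 (male TG 3), with 14 without female TG 3. Over both ganglia (28) the counts were 16 with library totals, 45 with DESeq2, 45 without a low-count filter, 6 with the correction, 0 with libraries summed by sex and number and 11 with limma-voom and a replicate block correlation. Leaving out 1 library gave 0 (male DRG 2, female TG 1, female TG 2, male TG 1 or male TG 2) to 53 (male DRG 3), with 2 without male DRG 1, 6 without female DRG 2, 12 without female DRG 1 and 46 without male TG 3. Shares over all genes are given for these alternatives only where the sections above print them. The interaction and the ganglion comparison called 0 in each alternative run. With the correction 20 of 73 subunits turned from lower to higher in TG and 5 of 76 in DRG. Among the named genes whose alternatives were run, Uqcrb in TG was 0.17 with the correction, 0.16 with the block added and 0.22 with libraries 1 and 2 only and the correction, Cox7b 0.14, 0.13 and 0.10 in the same order, and Uqcrh 0.01 with the correction and 0.10 with those libraries. The cause was not tested. Of the other values of named genes, 248 kept direction and side of the threshold, 28 passed it newly and 52 no longer did. Same-numbered libraries were not shown to pair: correlations of their deviations were 0.032 to 0.168 between the sexes in DRG, -0.098 to 0.01 in TG and 0.028 to 0.216 between ganglia, while the consensus correlation in limma-voom was 0.333. The replicate block gave 17 subunits in DRG and 3 in TG. Between ganglia it gave 18 subunits at an unadjusted p under 0.05, all lower in TG, against 0 without the block. Of all genes in that fit 14.3% reached that p in either direction, and the share lower in TG is not given here. Near-zero counts limit Ndufa4l2, Cox4i2 and Cox7a1.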
